A study of Mus musculus with 2 samples.

Results

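The cells described here are 91 cells of the injured mouse optic nerve in which the nuclear RNA Malat1 made up at least 1% of the transcripts counted and in which fewer than 5000 transcripts were counted in all. They are 91 of the 778 cells in the deposited table and 12.5% of its 727 injured-nerve cells, and they held 4.77% of the injured library's UMIs, the unique molecular identifiers by which captured transcripts are counted. Both limits are measured values of these same cells, so Malat1 and depth are given as a description of how the cells were chosen. The cells set beside them are the other 492 injured cells under 5000 UMIs, in which Malat1 made up less than 1%. They are called Malat1-poor, and the 91 cells Malat1-rich. Because the Malat1 limit splits the cells of 1 library by their own content, every difference between the 2 kinds is a description and no test was made.

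The nerves came from wildtype mice of the strain 129S1/SvlmJ, of both sexes per the series' text. In the injured group the optic nerve was crushed when the mice were 8 weeks old, and its cells were collected 2 weeks after that, at 10 weeks. The uninjured group had no treatment and gave 51 cells, 17 of them with at least 1% Malat1 and under 5000 UMIs. Per the series' text the uninjured nerves were also from mice 10 weeks old, whereas the source label gives day 56 for both groups. The number of nerves or animals pooled was not given in the sources used here. There was 1 library per condition, so no difference has a replicate check. Intervals are exact 95% intervals and cover counting error only.

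Malat1 and Neat1 are long noncoding RNAs that stay in the nucleus, where Malat1 collects in splicing speckles and Neat1 builds paraspeckles. Messenger RNAs of ribosomal proteins and of most housekeeping enzymes are short, abundant and held mainly in the cytoplasm, and transcripts of the mitochondrial genome lie inside mitochondria. The macrophages of this tissue are resident microglia, which keep up a surveillance programme in the healthy nerve, and cells that take up myelin and lipid after the axons are cut. The 3' droplet method captures RNA through a poly(A) stretch with an oligo(dT) primer, and a run of adenines inside a transcript can be captured as well.

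The A runs of the 2 nuclear RNAs that lead the description are shown because they are the sequence that such a primer pairs with. Both genes lie on the minus strand of chromosome 19 in GENCODE vM21 (mm10), Malat1 at 5795690 to 5802672 and Neat1 at 5824708 to 5845478, and both transcripts have a single exon. The longest A run of each is in capitals with the flanking bases in lower case, and the stretch shown is chr19:5795963-5796024 for Malat1 and chr19:5832880-5832936 for Neat1.
Malat1-201: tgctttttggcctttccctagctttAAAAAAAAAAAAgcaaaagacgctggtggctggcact
Neat1-201: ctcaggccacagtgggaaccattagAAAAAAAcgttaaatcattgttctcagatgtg
In the 6983-base Malat1-201 transcript the run is 12 bases long and ends 298 bases before the transcript's end. In the 20771-base Neat1-201 transcript the longest run is 7 bases long, occurs 2 times, and the one shown ends 8197 bases before the end. Where the reads began was not analysed here.

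Depth per Malat1-rich cell was 543 to 4679 UMIs with a median of 1668, and 314 to 1735 genes were seen per cell. The Malat1-poor cells were shallower, with a median of 847.5 UMIs and a range of 500 to 4672. Summed, the Malat1-rich cells held 176228 UMIs and the Malat1-poor cells 568778, so that a count of 0 allows up to 17.02 CPM (UMIs per 1000000) in the first and 5.27 CPM in the second. The 144 injured cells with 5000 UMIs or more had a median of 19206 UMIs. No cell barcode was shared between the libraries. Xist, which is transcribed from the inactive X chromosome of female cells, had 0 UMIs in all 778 cells, whereas 199 injured and 12 uninjured cells had a UMI of a Y chromosome gene, although the series' text gives both sexes.

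The Malat1-rich cells carried macrophage genes. Of the 91 cells, 88 had a UMI of at least 1 of 9 macrophage or microglia markers and 72 had at least 3 of them, against 477 of 492 Malat1-poor cells with at least 3. After each cell was thinned to 500 UMIs, the counts with at least 3 markers were 51 of 91 and 459 of 492. C1qa, a complement subunit made by macrophages, was seen in 75.8% of the Malat1-rich cells and in 0% of the 5 injured T cell-like cells, which had a median depth of 5387 UMIs. Of T cell receptor and Cd3 genes, 2 or more were present in 2 Malat1-rich cells and in 0 Malat1-poor cells.

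The share of Malat1 in each Malat1-rich cell ran from 1.01% to 13.02% with a median of 3.27%. It reached 2% in 70 cells and 5% in 28 cells. The 6 cells just above the limit, at 1.01% to 1.21%, had a median mitochondrial share of 2.52% and a median ribosomal protein share of 14.0%, and the 6 cells just below it, at 0.801% to 0.996%, had 0.970% and 16.6%. In these 2 shares the cells next to the Malat1 limit were closer to each other than the 2 kinds were as a whole, but not in Gm42418, a transcript at the ribosomal RNA repeat, whose median share was 9.99% just above and 6.65% just below the limit. At the depth limit, the 5 Malat1-rich cells of 4000 to 5000 UMIs had a median mitochondrial share of 16.4% and a median ribosomal protein share of 5.15%. The 8 Malat1-rich injured cells of 5000 to 6500 UMIs had 4.83% and 12.7%.

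Besides Malat1, only Neat1 and Kcnq1ot1 of the nuclear RNA list were seen often enough to be compared, and both were more abundant. Neat1 took from 0% to 1.19% of a Malat1-rich cell's UMIs with a median of 0.121%, and its summed level was 1612 CPM (284 UMIs, 1430 to 1810 CPM) against 114 CPM in the Malat1-poor cells (65 UMIs). That is a ratio of 14.1 (10.7 to 18.8). A Neat1 UMI was present in 73.6% of the Malat1-rich and 9.76% of the Malat1-poor cells. Within depth bands the levels were 1736 against 237 CPM at 500 to 1000 UMIs, 1976 against 65.4 CPM at 1000 to 2000 UMIs, and 1465 against 21.1 CPM at 2000 to 5000 UMIs. Kcnq1ot1, an imprinted nuclear RNA, stood at 255 CPM (45 UMIs) against 12.3 CPM (7 UMIs). Both RNAs passed the limit of 10% of cells in the Malat1-rich cells only, so their direction was partly set by that limit. Meg3, Snhg11 and Ftx had 2 UMIs or fewer each among the Malat1-rich cells, and Tsix, Jpx and Miat had 0.

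**Figure D1:**
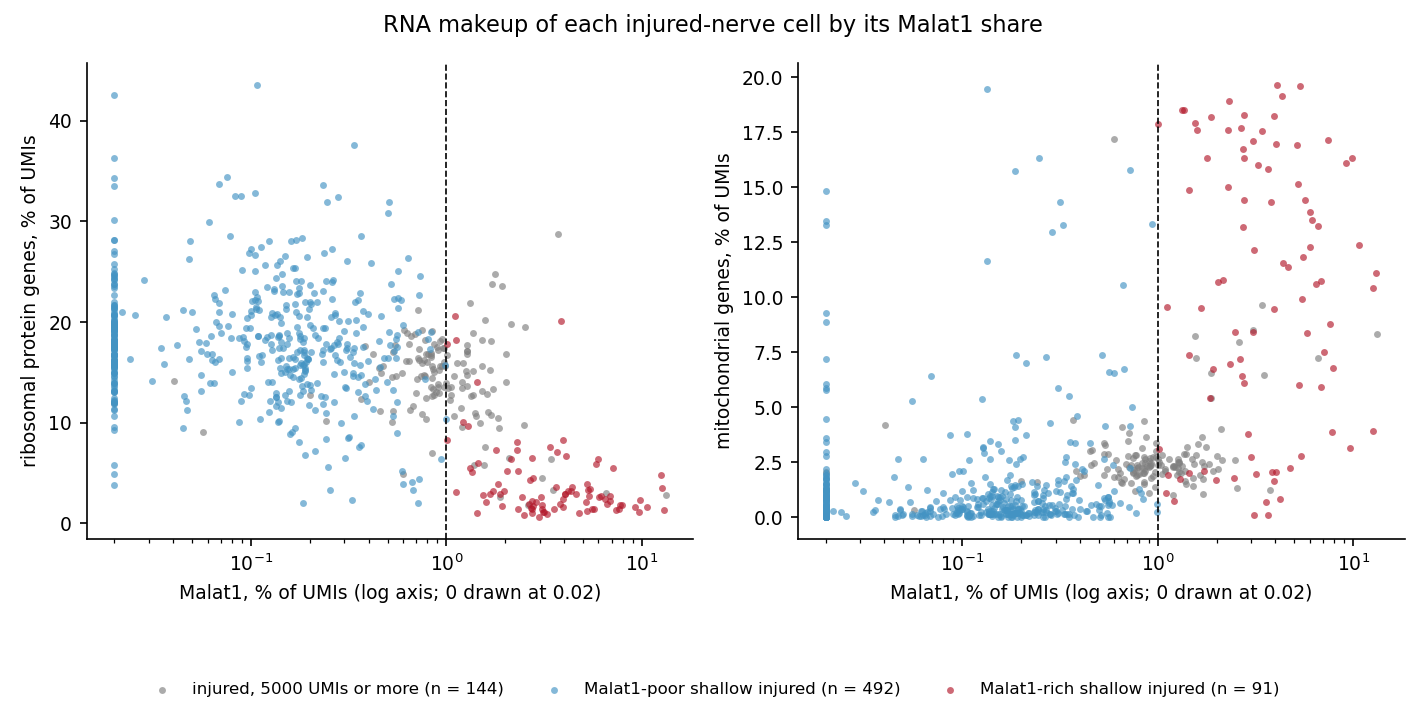
Each point is 1 injured-nerve cell: the x axis is its Malat1 share of UMIs (log axis) and the y axis its ribosomal protein share (left) or mitochondrial share (right), both in percent of UMIs, with the dashed line at 1%. The 91 Malat1-rich shallow cells (red) lie low on the left panel, with a median of 2.87%, and spread from 0.122% to 19.7% on the right panel.

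Mitochondrial transcripts were high in most of the Malat1-rich cells and low in most of the Malat1-poor cells. The 13 protein-coding genes of the mitochondrial genome together took 0.122% to 19.7% of a Malat1-rich cell's UMIs with a median of 10.7%, and 0% to 19.5% of a Malat1-poor cell's with a median of 0.503%. The share was at least 5% in 67 of the 91 Malat1-rich cells and under 2% in 12 of them. Among the 492 Malat1-poor cells, 32 reached 5% and 415 were under 2%. The 2 kinds overlapped: 12 Malat1-poor cells were at or above the Malat1-rich median. The highest share of any cell in the table was 19.7%, and no limit on this share was given in the sources used here.

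All 13 mitochondrial genes were at least 2-fold higher in the Malat1-rich cells, where 35.0% of the 2860 genes compared were, and their median log2 ratio was 3.09. A gene was compared if 10% of the cells of either kind had a UMI of it, the log2 ratios use summed CPM plus 50 CPM, and the median over all 2860 genes was 0.68. Ratios of summed levels ran from 7.24 (6.18 to 8.51) for mt-Nd1, a subunit of complex I, to 16.9 (9.98 to 30.3) for mt-Nd6, another subunit of that complex with 89 UMIs. The highest log2 ratio, 3.45, was that of mt-Co2, subunit 2 of cytochrome c oxidase, at 20859 CPM against 1867 CPM, a ratio of 11.2 (10.4 to 12.0). Levels of mt-Atp6, a subunit of ATP synthase, were 23850 CPM against 2504 CPM.

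The nuclear genes of the same respiratory complexes went the other way. Of 39 compared, 0 were at least 2-fold higher and 34 at least 2-fold lower in the Malat1-rich cells, with a median log2 ratio of -1.63, where 18.0% of all genes compared were lower. Cox7c, a nuclear-encoded subunit of cytochrome c oxidase, stood at 125 CPM against 751 CPM. Uqcrh, of complex III, stood at 90.8 CPM against 612 CPM. Within the same enzyme complexes, the subunits coded in the mitochondrion were thus higher and those coded in the nucleus lower.

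Ribosomal protein transcripts were low in most of the Malat1-rich cells. Their share was 0.598% to 20.6% of UMIs in the Malat1-rich cells with a median of 2.87%, and 2.01% to 43.6% in the Malat1-poor cells with a median of 17.8%. It was below 5% in 66 of 91 Malat1-rich cells and in 10 of 492 Malat1-poor cells, and at least 10% in 6 and 461 cells. Only 3 Malat1-poor cells were at or below the Malat1-rich median. Rps29, a protein of the small ribosomal subunit, stood at 1702 CPM against 9280 CPM. The deep injured cells were close to the Malat1-poor cells, with a median share of 14.8%.

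The gap held at matched depth. At 500 to 1000 UMIs the median ribosomal protein share was 1.91% in 25 Malat1-rich cells against 17.4% in 302 Malat1-poor cells, and at 2000 to 5000 UMIs it was 3.64% in 38 cells against 17.8% in 67 cells. The mitochondrial share of the Malat1-rich cells was higher in deeper bands, from a median of 6.42% at 500 to 1000 UMIs to 9.95% at 1000 to 2000 UMIs and 14.7% at 2000 to 5000 UMIs. In the Malat1-poor cells the order was the opposite, with 0.672%, 0.382% and 0.245%.

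Gm42418, a transcript model on chromosome 17 (39846958 to 39848788, plus strand) that overlaps the copy of the ribosomal RNA repeat in the mm10 assembly, was the other large part of the Malat1-rich cells. It took 0.144% to 21.7% of a cell's UMIs with a median of 8.00%, against 0.323% to 30.5% with a median of 5.15% in the Malat1-poor cells. AY036118, which overlaps it on the minus strand, stood at 5833 CPM against 1549 CPM. Counting by strand was not given in the sources used here, so the reads of these 2 overlapping models cannot be told apart. Gm26917, another predicted transcript, was seen in 71.4% of the Malat1-rich and 2.24% of the Malat1-poor cells, at 845.5 CPM against 29.9 CPM. The Gm42418 share was far lower in the deep injured cells, with a median of 0.927%, and in the uninjured Malat1-rich cells, with 0.748%.

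**Figure D2:**
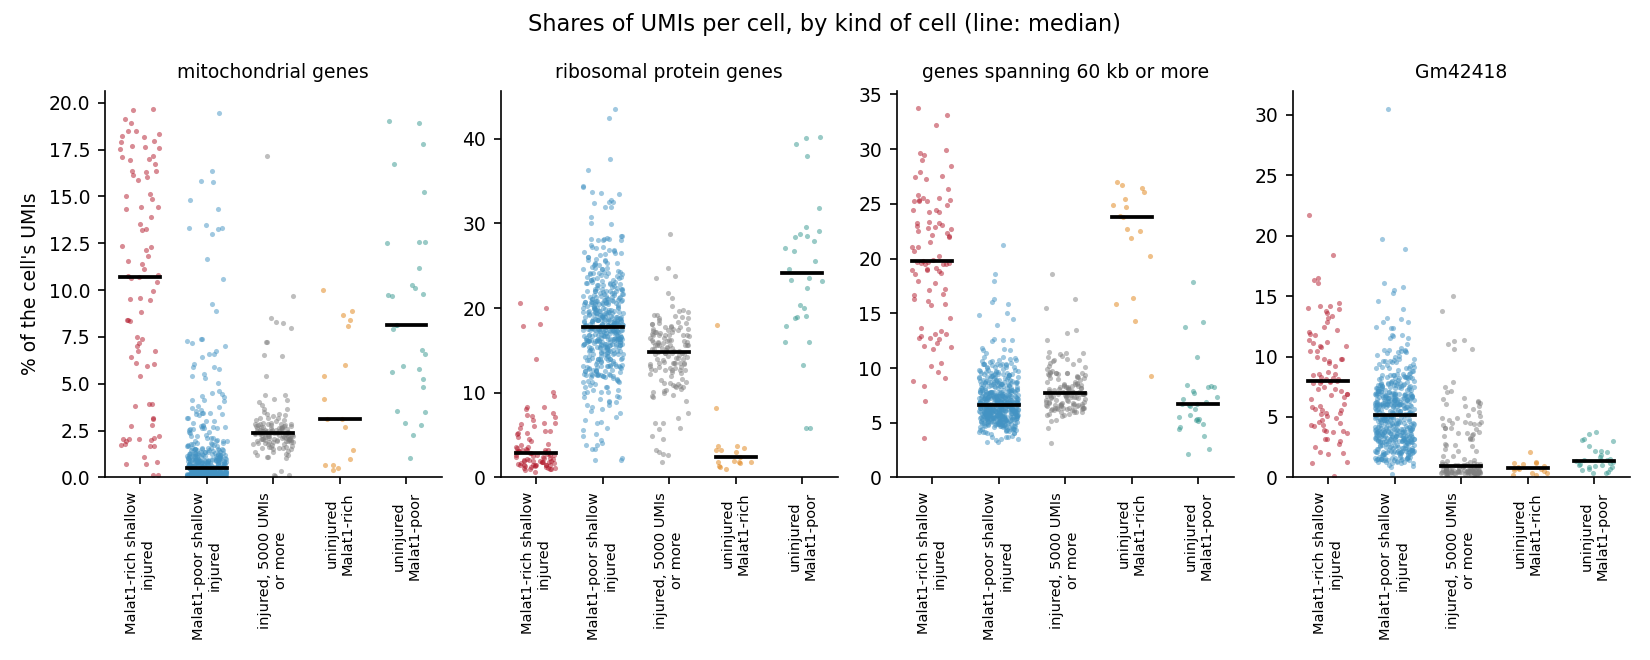
Each point is 1 cell, the y axis is the percent of that cell's UMIs from the genes named above each panel, and the black line is the median of the kind. The Malat1-rich shallow injured cells (red) and the uninjured Malat1-rich cells (orange) share low ribosomal protein shares and high shares of genes spanning 60 kb or more, with medians of 19.8% and 23.8%, and differ in Gm42418.

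Long genes took more of the Malat1-rich cells' transcripts. Genes that span at least 60 kb on the genome, introns included, took 3.60% to 33.8% of a Malat1-rich cell's UMIs with a median of 19.8%, and 3.22% to 21.3% of a Malat1-poor cell's with a median of 6.66%. Genes that span under 5 kb, with mitochondrial and ribosomal protein genes left out, took a median of 20.8% and 33.6%. This short set includes Gm42418, which alone had medians of 8.00% and 5.15%. Whether reads in introns were counted was not given in the sources used here.

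Gene by gene the ratio followed length. Without Malat1, Neat1, mitochondrial and ribosomal protein genes, the median log2 ratio of Malat1-rich over Malat1-poor cells was -1.06 for 273 genes spanning under 5 kb, 0.76 for 839 genes of 20 to 60 kb and 1.18 for 352 genes of 120 kb or more. By exonic length of the longest transcript it was -1.30 under 1 kb (155 genes) and 1.29 at 7 kb or more (456 genes). In that longest class 72.4% of genes were at least 2-fold higher and 0.219% at least 2-fold lower. A length was found for 99.4% of the genes compared.

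Exonic length set genes apart within both classes of span. Among genes spanning under 20 kb the median log2 ratio was -0.84 for 700 genes with exons under 3 kb and 0.70 for 325 genes with 3 kb or more. Among genes spanning 20 kb or more it was -0.15 for 256 genes with short exons and 1.04 for 1466 genes with long ones. The trend was steeper after thinning to 500 UMIs, from -1.74 at under 1 kb of exons to 2.00 at 7 kb or more, and it was present at 1000 to 2000 UMIs (-1.45 and 1.49) and among genes with a mean level of at least 200 CPM (-1.94 and 2.19).

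Against the uninjured Malat1-rich cells, where 3757 genes passed the filter in place of 2764, the medians showed little of this trend. The median log2 ratio was -0.13 at under 1 kb of exons (116 genes) and -0.12 at 7 kb or more (561 genes), with a median of -0.34 over all 3852 genes compared. Against the deep injured cells, 7.79% of 8143 genes compared were at least 2-fold higher and 4.86% at least 2-fold lower in the Malat1-rich cells, and the medians ran from -0.56 at under 1 kb to 0.76 at 7 kb or more.

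**Figure D3:**
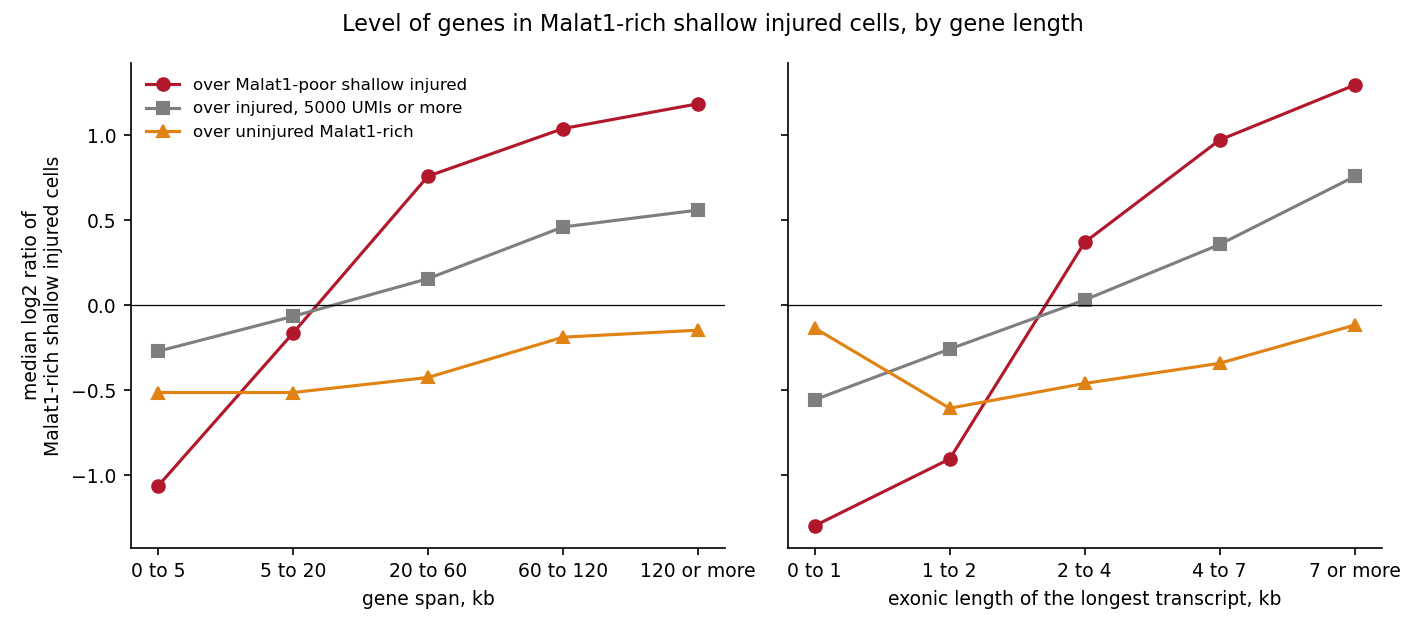
The y axis is the median log2 ratio of genes in the Malat1-rich shallow injured cells over 3 other kinds of cells, and the x axis bins genes by genomic span (left) or exonic length (right), in kb. The line over the Malat1-poor cells climbs from -1.30 to 1.29 by exonic length, and the line over the uninjured Malat1-rich cells stays between -0.61 and -0.12.

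In all, 1001 of 2860 genes were at least 2-fold higher and 514 at least 2-fold lower in the Malat1-rich cells, so that 66.1% of the genes past 2-fold were higher. Thinned to 500 UMIs the counts were 339 and 334 of 855 genes, which is 50.4% higher. With totals that leave out Malat1 and mitochondrial genes they were 1226 and 424, or 74.3% higher. The balance of higher and lower genes thus differed between these settings, and thinning also lowered the number of genes compared. A gene could enter the comparison through either kind of cell. The Malat1-rich cells were deeper, with medians of 1668 and 847.5 UMIs, so genes of low level could enter through them alone. For such genes the direction was partly set by the filter, here and in the genes and lists below.

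Genes for splicing and chromatin were mostly on the higher side, beside 35.0% higher and 18.0% lower among all genes compared. Of 33 spliceosome and nuclear RNA-binding genes compared, 23 were at least 2-fold higher and 1 was at least 2-fold lower, at a median log2 ratio of 1.57. Rbm25, a splicing regulator, stood at 698 CPM against 29.9 CPM, Clk1, a kinase of splicing factors, at 681 CPM against 52.7 CPM, and Son, a scaffold of nuclear speckles, at 1243 CPM against 134 CPM. The lower one was Hnrnpa1, an RNA-binding protein that shuttles out of the nucleus, at 96.5 CPM against 260.2 CPM. Of 28 chromatin regulators and other genes with long transcripts 25 were higher and 0 lower (median 1.82). Genes of both lists that entered through the deeper Malat1-rich cells alone had their direction partly set by the filter. Ankrd11, a chromatin-binding cofactor, was at 619 CPM against 47.5 CPM. The chromatin list was made of genes with long transcripts. Among all genes compared with 7 kb or more of exons, 72.4% were at least 2-fold higher. A difference of the list from other genes of like length was not tested.

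Besides Malat1, the highest log2 ratio of the 2860 genes was that of Dennd4a, a regulator of vesicle traffic. Its level was 1038 CPM (183 UMIs in 60 cells) against 31.6 CPM (18 UMIs), a ratio of 32.8 (20.2 to 56.6). Ccnl1, a cyclin of splicing kinases, followed at 1152 CPM against 51.0 CPM, then Lyst, a lysosomal trafficking regulator, at 840 CPM against 26.4 CPM. Jmjd1c, a histone demethylase family member, stood at 829 CPM against 26.4 CPM and was seen in 75.8% of the Malat1-rich cells. AC149090.1, a gene model on an unplaced scaffold, stood at 749 CPM against 19.3 CPM. Mitochondrial, ribosomal protein and predicted genes aside, the others of the first 15 were Neat1, Tnfaip2, Spag9, Rbm25, Fosb, Macf1, Mycbp2, Rel, Sbno2 and Lilr4b, and the value of Lilr4b is uncertain because a near-identical gene lies beside it.

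**Figure D4:**
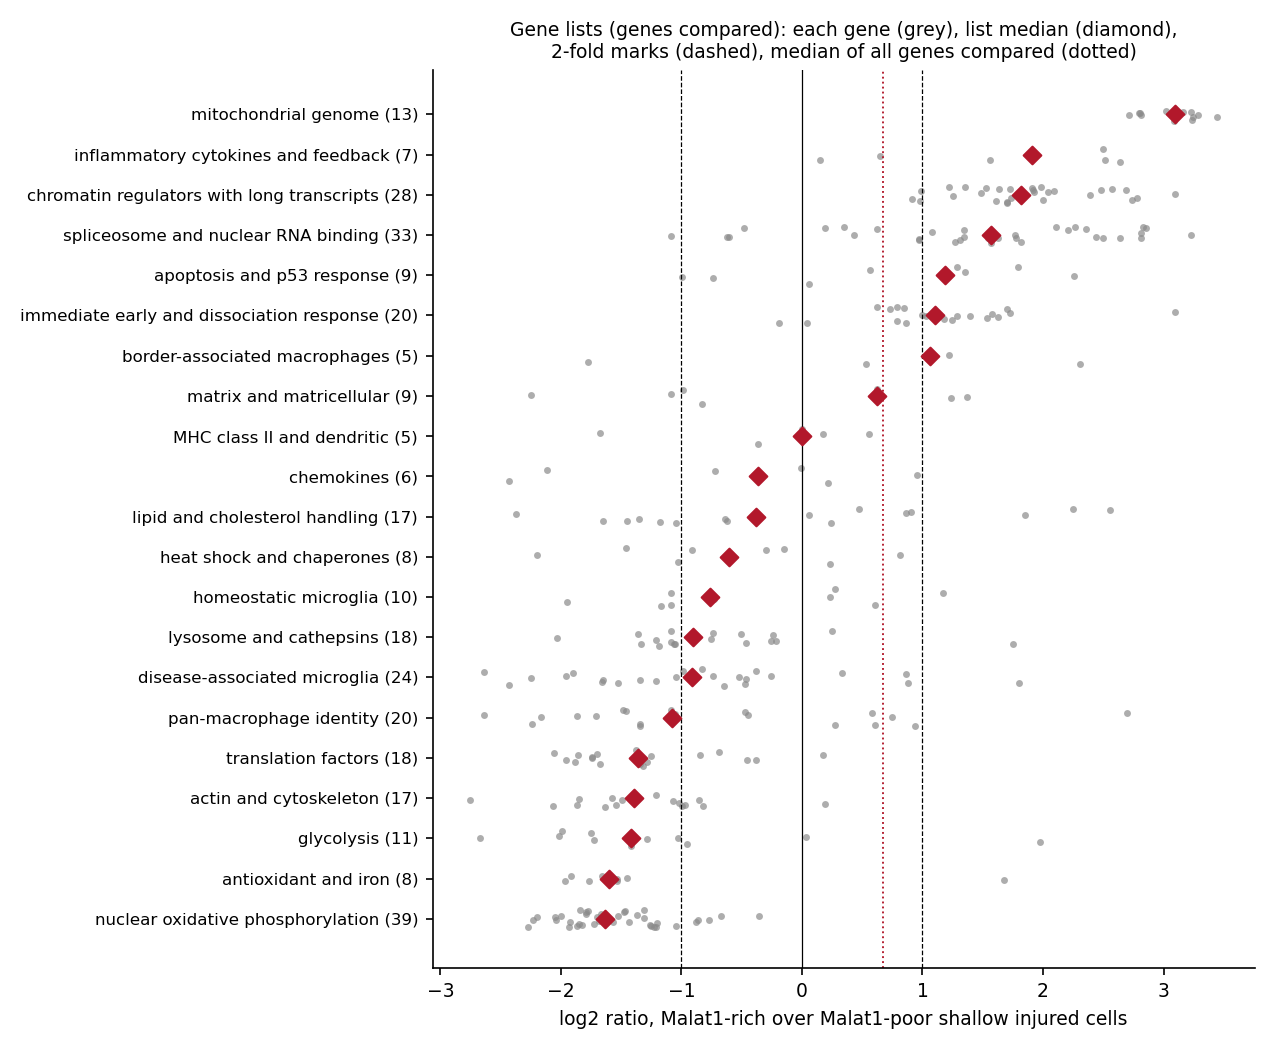
Each row is a gene list with the number of genes compared, each grey point 1 gene and each diamond the list's median; the x axis is the log2 ratio of Malat1-rich over Malat1-poor shallow injured cells. Mitochondrial genome genes lie at a median of 3.09 and nuclear oxidative phosphorylation genes at -1.63, on opposite sides of the median of all genes at 0.68 (dotted).

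Most of the genes compared in the inflammatory, immediate early and apoptosis lists passed 2-fold upward and 0 downward. Among all genes compared 35.0% were higher and 18.0% lower. Only 7 of 14 inflammatory and 9 of 17 apoptosis genes passed the filter. Where a gene entered through the Malat1-rich cells alone, its direction was partly set by the filter. Of 7 inflammatory cytokine and feedback genes compared, 5 passed 2-fold upward and 0 downward, at a median of 1.91. Il1b, the cytokine interleukin 1 beta, stood at 1663 CPM (293 UMIs in 39 cells) against 250 CPM (142 UMIs), a ratio of 6.66 (5.43 to 8.20), and its share in single Malat1-rich cells ran from 0% to 1.40%. Tnfaip3, which restrains NF-kB signalling, stood at 602 CPM against 54.5 CPM and Nlrp3, an inflammasome sensor, at 289 CPM against 40.4 CPM. Of 20 immediate early and dissociation-response genes, 11 were higher and 0 lower (median 1.10). Fosb, a transcription factor subunit, stood at 993 CPM against 72.1 CPM. Apoptosis and p53 response genes had 5 of 9 higher and 0 lower, among them Bcl2l11, a cell-death activator, at 289 CPM against 21.1 CPM, and Mcl1, a survival factor, at 863 CPM against 213 CPM. Against the deep injured cells, where 7.79% of all genes compared were higher and 4.86% lower, the medians of the same lists lay near 0. Of 12 inflammatory genes 2 were higher and 0 lower (median 0.04), and of 20 immediate early genes 1 was higher and 1 lower (median -0.13). Of 13 apoptosis genes 2 were higher and 1 lower (median 0.06).

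Genes of cytoplasmic machinery were on the lower side, beside 35.0% higher and 18.0% lower among all genes compared. Of 18 translation factor genes 0 were higher and 13 lower (median -1.36), of 17 actin and cytoskeleton genes 0 were higher and 12 lower (median -1.40), and of 11 glycolysis genes 1 was higher and 8 lower (median -1.42). Tmsb4x, the actin-binding peptide thymosin beta 4, had the lowest log2 ratio of all at -2.75. It took 0% to 4.60% of a Malat1-rich cell's UMIs with a median of 0.234%, against 0% to 11.3% with a median of 2.49%. Gapdh, a glycolytic enzyme, stood at 323 CPM against 2330 CPM and was 7.20-fold (5.52 to 9.56) lower. The higher glycolysis gene was Hk2, a hexokinase, at 630 CPM against 123 CPM.

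Macrophage identity genes were mostly on the lower side. Of 20 pan-macrophage genes compared, 1 was at least 2-fold higher and 12 lower, with a median of -1.08. Among all genes compared 35.0% were higher and 18.0% lower, which is also the background for the 2 shorter lists below. Tyrobp and Fcer1g, short adaptor subunits of activating receptors, stood at 948 CPM against 6168 CPM and at 488 CPM against 2491 CPM. Ptprc, the long gene of the leukocyte phosphatase CD45, was the 1 higher gene, at 925 CPM against 100.2 CPM. Csf1r, the receptor for the growth factor that macrophages need, was at 1175 CPM against 753 CPM, a ratio of 1.56 (1.32 to 1.85). Of 10 homeostatic microglia genes compared 1 was higher and 4 lower (median -0.76), and of 5 border macrophage genes 3 were higher and 1 lower (median 1.06), the highest being Stab1, a scavenger receptor, at 50 UMIs against 10.

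Disease-associated microglia genes, which mark lipid-laden and phagocytic cells, had 1 of 24 higher and 11 lower, with a median of -0.91. The shares over all genes compared were 35.0% higher and 18.0% lower. Apoe, the main lipid carrier of these cells, took 0% to 18.3% of a Malat1-rich cell's UMIs with a median of 3.61%, against 0% to 28.9% with a median of 6.02%. Its summed levels were 54764 CPM and 71214 CPM, a ratio of 0.769 (0.752 to 0.786). Apoe was also seen in 100% of the 5 T cell-like cells, so its presence in a cell does not mark the cell type here. Spp1, osteopontin, was 4.84-fold (4.37 to 5.37) lower at 2247 CPM against 10881 CPM. The higher gene was Gpnmb, a membrane glycoprotein of phagocytic macrophages, at 1600 CPM against 424 CPM.

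Among lipid and lysosome genes few were higher, beside 35.0% higher and 18.0% lower among all genes compared. Of 17 lipid and cholesterol genes compared, 3 were higher: Abca1, the cholesterol exporter, at 1759 CPM against 258 CPM; Lrp1, a receptor for lipoproteins and debris, at 1084 CPM against 188 CPM; and Npc1, which moves cholesterol out of lysosomes, at 289 CPM against 44.0 CPM. In the same list 6 were lower, among them Apoc1, a small apolipoprotein, at 641 CPM against 3539 CPM. Of 18 lysosome genes 1 was higher and 9 lower. The higher one was Psap, the precursor of the saposins that help break down sphingolipids, at 5612 CPM (989 UMIs) against 1635 CPM, a ratio of 3.43 (3.13 to 3.76). Ctsb and Ctsd, abundant cathepsins, were within 2-fold at log2 ratios of -0.26 and -0.47. Of 8 antioxidant and iron genes compared 1 was higher and 7 lower (median -1.60), with Fth1, the ferritin heavy chain, at 6412 CPM against 20372 CPM and Txnrd1, a thioredoxin reductase, the higher one at 306 CPM against 61.5 CPM.

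Complexity was compared after thinning, because the Malat1-rich cells were deeper. At 500 UMIs per cell the Malat1-rich cells had 230 to 383 genes with a median of 313, and the Malat1-poor cells 165 to 379 with a median of 293. Without Malat1, mitochondrial and ribosomal protein genes the medians were 288 and 241. Unthinned, they were 852 and 435. In cells of 2000 to 5000 UMIs the order turned, with thinned medians of 296 and 299.

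The uninjured library held 17 cells that meet the same limits, with 25613 UMIs, a median of 1220 UMIs per cell, and Malat1 at 1.93% to 10.9% with a median of 5.14%. A count of 0 there allows up to 117 CPM, and 1 UMI is worth 39.0 CPM, so genes of low level can pass 2-fold on a few UMIs. Their ribosomal protein share was low as well, with a median of 2.46% and a range of 0.983% to 18.1%. Their mitochondrial share was lower than in the injured Malat1-rich cells, with a median of 3.11% and a range of 0.416% to 9.99%. In the 30 uninjured Malat1-poor cells the ribosomal protein median was 24.1% and the mitochondrial median 8.11%.

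Against these uninjured cells, 526 of 3852 genes (13.7%) were at least 2-fold higher and 821 (21.3%) at least 2-fold lower in the injured Malat1-rich cells. Disease-associated microglia genes were mostly on the higher side, with 15 of 24 higher and 2 lower. Their median log2 ratio was 1.16, or 1.05 with genes at 0 set at their bound. Of the 24, 7 had 0 UMIs in the uninjured cells, so they entered through the injured cells alone and could only come out higher. Apoe stood at 54764 CPM against 1640 CPM (42 UMIs), a ratio of 33.4 (24.7 to 46.4). Spp1 had 396 UMIs in 70 injured cells and 0 UMIs in the uninjured ones, which makes it at least 19.2-fold higher. Gpnmb, also at 0 UMIs there, was at least 13.7-fold higher. Lyz2, the lysozyme of macrophages, stood at 4846 CPM against 156 CPM (4 UMIs). Lipid genes had 11 of 16 higher and 1 lower, with Abca1 at 310 UMIs against 1, a ratio of 45.1 (8.03 to 1785). Of these 16, 5 were at 0 in 1 of the 2 kinds. The list's median was 1.63, or 1.13 with genes at 0 set at their bound.

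Homeostatic microglia genes were at least 2-fold lower in 15 of 15 compared, where 21.3% of all genes compared were lower. Their median log2 ratio was -2.16. A gene could enter through the uninjured cells alone, and only 10 genes of this list passed the filter against the Malat1-poor cells. For genes that entered through the uninjured cells alone, the direction was partly set by the filter. P2ry12, a purine receptor of surveying microglia, had 5 UMIs (28.4 CPM) in the injured Malat1-rich cells and 24 UMIs (937 CPM) in the uninjured ones. Tmem119, a microglial membrane protein, had 6 and 24 UMIs. Cst3, the abundant protease inhibitor cystatin C, stood at 3172 CPM against 27916 CPM and was 8.80-fold (7.87 to 9.85) lower.

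Immediate early genes were also lower than in the uninjured cells, with 0 of 20 higher and 10 lower and a median of -0.98. Among all genes compared with the uninjured cells, 13.7% were higher and 21.3% lower. Jun stood at 675 CPM against 5544 CPM and was 8.21-fold (6.39 to 10.6) lower. Hspa1a and Hspa1b, near-identical heat shock genes whose reads may be split between them, had 9 and 4 UMIs against 89 and 66. Ccl4, a chemokine, had 33 UMIs (187 CPM) against 136 UMIs (5310 CPM). Il1b stood at 1663 CPM against 1913 CPM, a ratio of 0.869 whose interval (0.641 to 1.20) includes 1. Genes of splicing had 2 of 32 higher and 5 lower (median -0.44), and those of chromatin 5 of 28 higher and 3 lower (median 0.03, or -0.04 with genes at 0 set at their bound). Lists of cytoplasmic machinery were not on the lower side here. Translation factors had 2 of 18 higher and 0 lower (median 0.07), and actin and cytoskeleton genes 2 of 16 higher and 0 lower (median 0.26). Glycolysis genes had 6 of 10 higher and 1 lower (median 1.29, or 0.43 with genes at 0 set at their bound).

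**Figure D5:**
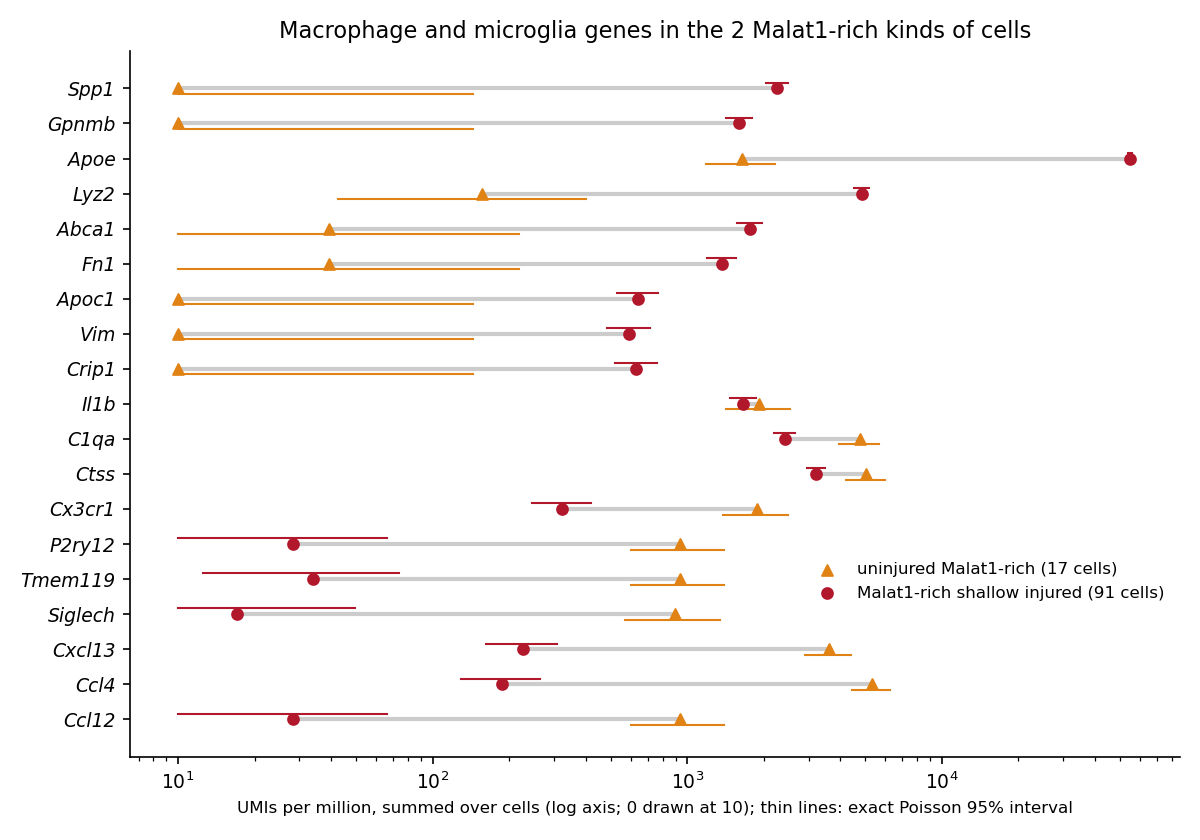
The x axis is the summed level in CPM (log axis) of 19 macrophage and microglia genes in the 91 Malat1-rich shallow injured cells (circles) and the 17 uninjured Malat1-rich cells (triangles), with thin lines for exact Poisson 95% intervals and 0 drawn at 10. Spp1, Gpnmb and Apoe are higher in the injured cells, P2ry12, Tmem119 and Siglech lower, and the Il1b intervals overlap.

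Myelin transcripts were seen in 89 of the 91 Malat1-rich cells at low shares. The oligodendrocyte and myelin list took 0% to 6.47% of a cell's UMIs with a median of 0.346%, against a median of 0.489% in the Malat1-poor and 0.238% in the deep injured cells, with 0 of its 13 measured genes at 0. Mbp, the myelin basic protein gene, was seen in 58.2% of the Malat1-rich cells and 60% of the T cell-like cells. The part that RNA of myelin or of the other cells below has in the differences was not tested. Astrocyte genes were seen in 47 of the 91 cells, at up to 0.470% of a cell's UMIs, with Slc1a3, a glutamate transporter, at 66 UMIs and Gfap at 20. Endothelial genes were seen in 36 cells, with Bsg at 39 UMIs, fibroblast genes in 29 cells, with Apod at 13 UMIs, and Schwann cell genes in 23. Neutrophil genes were seen in 30 cells, with Csf3r at 45 UMIs, and reached 3.11% of 1 cell's UMIs. Among the 144 deep injured cells, endothelial genes were seen in 142, neutrophil genes in 116 and astrocyte genes in 106. A UMI of these lists thus does not by itself mark a cell type here. T and NK cell genes were seen in 13 cells, oligodendrocyte precursor genes in 12, B cell genes in 8 and neuron genes in 3. Of the mural cell list all 7 genes were at 0. Haemoglobin genes had 6 UMIs in all. Of border macrophage markers, Mrc1 had 10 UMIs in 5 cells, Cd163 had 1 and Lyve1 had 0, and of monocyte markers Ccr2 had 21 UMIs in 8 cells and Ly6c2 had 1.

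MHC class II transcripts, which present antigen to T cells, lay in few of the Malat1-rich cells. At least 3 of the 4 genes H2-Aa, H2-Ab1, H2-Eb1 and Cd74 were seen in 13 cells (14.3%, 7.83% to 23.2%), and these held 395 of the 442 UMIs of the 4 genes. Among the Malat1-poor cells 38 (7.72%) carried at least 3, and among the deep injured cells 46 of 144 (31.9%). The kinds of cells differ in depth, and these counts were not matched for it. The whole MHC class II and dendritic list took 0.261% of summed UMIs in the Malat1-rich, 0.271% in the Malat1-poor and 0.512% in the deep injured cells. A UMI of that list was present in 38.5% of the Malat1-rich and 47.8% of the Malat1-poor cells. The 13 cells had a median Malat1 share of 6.86%, a mitochondrial share of 10.7% and a ribosomal protein share of 1.88%.

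The Malat1-rich cells were not all alike. Grouped by their own transcripts they fell into a group of 75 and a group of 16 cells. The 16 cells had a lower Malat1 median (1.45% against 3.81%), a lower mitochondrial median (5.26% against 11.1%) and a higher ribosomal protein median (7.71% against 2.41%), and genes spanning 60 kb or more took 12.7% against 21.1%. Their leading gene was Cxcl13, a chemokine, with 37 UMIs in 6 cells against 3 UMIs in the other 75. At a finer resolution there were 5 groups of 22, 19, 19, 17 and 14 cells. One of 17 cells was led by Icam1, an adhesion molecule, and the NF-kB regulator Nfkbiz, and the one of 14 cells by Tnip3 and the class II genes. The groups were cut from the same transcripts that describe them and are given no cell type name.

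Across the 91 cells the ribosomal protein share was lower where the share of genes spanning 60 kb or more was higher (Spearman's rho -0.703). The Malat1 share had a rho of -0.356 with the ribosomal protein share, 0.302 with the share of genes spanning 60 kb or more, 0.038 with the mitochondrial share and -0.0025 with the Gm42418 share, and the mitochondrial share was higher in deeper cells (rho 0.444). These are descriptions across cells of 1 library whose shares add up to a common total.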

How the data were processed

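Cells of digested optic nerve were captured with the 10x 3' v2 chemistry, per the labels' protocols. The build was mm10 and software named includes Cell Ranger (1.3), Seurat (4.0.3) and bcl2fastq (2.17.1.14), per the submitters' processing notes. The deposited values are unnormalized UMI counts, whole numbers with genes in rows and the cells of both conditions in columns, whose second line names each cell's condition. The authors had kept 778 cells of 200 to 6500 genes. The highest mitochondrial share left in any cell was 19.7%.

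The members (the 91 Malat1-rich cells) and the gene lists were chosen with earlier results of these data known. Counts were summed per kind of cell and scaled to CPM, with a pseudocount of 50 CPM, for genes with a UMI in 10% of either kind's cells or more. A gene at least 2-fold apart was counted; with 1 library per condition no test was made. Levels carry exact Poisson, shares Clopper-Pearson and ratios conditional binomial intervals at 95%. Bounds for 0 use 3 counts over the cells of a kind. Row names turned into dates (26 rows, 0.0777% of the members' UMIs) stayed in the totals only. No doublet caller was run.

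Named genes are the measured nuclear RNAs, the mitochondrial genes, the 15 highest and 15 lowest against Malat1-poor cells, the 10 highest and 10 lowest against uninjured cells, up to 4 genes per list and 5 per group; further genes were named after their values were seen. The Malat1-rich cells were grouped with Leiden clustering (leidenalg 0.10.2; 1000 genes, 10 components, 10 neighbours, resolution 0.5). Lengths and sequences are from GENCODE vM21. The 2-fold rule was run on simulated summed counts of genes seen in at least 10% of the reference cells. Entry of a gene through the Malat1-rich cells alone was not simulated. Python 3.11.15, numpy 2.4.6, scipy 1.17.1 and pandas 2.3.3 were used. Alternatives covered pseudocounts, filters, weights, thinning, totals, both limits and depth bands; the depth bands, the length checks, thinning for the uninjured comparison, totals also without ribosomal genes, and the left-out cells were chosen after seeing the data.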

Additional observations from a re-analysis of the deposited data

Results flagged for a closer look

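The mitochondrial share went in opposite directions in the 2 libraries. In the injured library the Malat1-rich shallow cells had a median 10.2 percentage points above that of the Malat1-poor cells (10.7% and 0.503%), and in the uninjured library the Malat1-rich cells had a median -5.00 points relative to the Malat1-poor cells (3.11% and 8.11%). Gm42418 did the same, with a difference of 2.84 points in the injured library (8.00% and 5.15%) and -0.643 points in the uninjured one (0.748% and 1.39%). The ribosomal protein share and the share of genes spanning 60 kb or more differed in the same direction in both. With 1 library per condition and 17 and 30 uninjured cells, these differences between libraries were not tested.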

How the results depend on the processing

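The mitochondrial and ribosomal protein differences and the Neat1 ratio kept their direction in the alternatives run. Genes per thinned cell did not: they were higher by 20 in the Malat1-rich cells, but -3 apart at 2000 to 5000 UMIs. They were 31 apart at 500 to 1000 UMIs, 40 at 1000 to 2000 UMIs and 69 when thinned to 1000 UMIs. Middle length classes changed sign too. Genes with 2 to 4 kb of exons had a median log2 ratio of 0.37, but -0.43 thinned to 500 UMIs. At a mean level of at least 200 CPM it was -0.45. Genes spanning 20 to 60 kb went from 0.76 to -0.09 at that level. The mitochondrial difference of 10.2 points was 6.33 with the Malat1 limit at 0.5%, 5.75 at 500 to 1000 UMIs and 14.5 at 2000 to 5000 UMIs. The ribosomal protein difference of -14.9 points was -14.0 as a share of summed counts, -14.0 with the limit at 0.5%, -15.4 at 500 to 1000 UMIs and -14.2 at 2000 to 5000 UMIs. The Neat1 ratio of 14.1 was 19.4 with the limit at 0.5%, and 7.32, 30.2 and 69.6 in the 3 depth bands. The 1001 higher genes were 481 with a pseudocount of 100 CPM and 339 after thinning, the latter with 334 lower genes in place of 514. Against uninjured cells the 821 lower genes were 1291 with a pseudocount of 10 CPM, and the 526 higher genes were 166 after thinning. Leaving out each uninjured cell in turn gave 532 to 586 higher and 769 to 883 lower genes. The 2 groups became 5 at resolution 1.0. The cause of these shifts was not tested. Thinning leaves fewer genes past the 10% filter (855 in place of 2860). Among list medians and named genes, 0 that were past 2-fold changed direction. Sign changes of smaller values were not counted. Leaving out the T cell-like cells gave 1025 higher and 517 lower genes. No paired analysis was possible because each condition has 1 library. Depth limits the uninjured comparison, where 0 UMIs allow 117 CPM.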
